A study of Danio rerio with 96 samples.

Results

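Pools of 10 whole zebrafish embryos were set against single embryos of the same exposure, with 8 pools and 8 single embryos, which are 16 of the 96 samples of the study. They were chosen by their labels, as the batches numbered 3 of the 10-embryo and of the 1-embryo samples, and not by any measured value. Both groups were whole embryos (Danio rerio) kept in dishes with 0.1% dimethyl sulfoxide (DMSO), the solvent used as vehicle control in chemical exposures, from 3-4 to 120 hours post fertilization, with exposure dates of 13 to 18 December. RNA of both groups was extracted on 18 December, the day the exposure ended, and neither group received another chemical. The groups therefore differed by label in the number of embryos, 1 or 10, and also in the extraction batch, number 11 for the single embryos and 12 for the pools, and in the plate column and index, which follow the batch. Pool size and batch cannot be told apart here. Strain, parents and dish of each sample are not given in the labels, so a p-value here reflects the spread of these 16 samples, which may be technical.

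At this stage a zebrafish larva has hatched, swims, has working heart, gut and liver, and is near the end of its yolk supply, so that a whole-embryo sample mixes the RNA of all tissues. RNA was measured with TempO-Seq, in which pairs of detector oligonucleotides that anneal side by side on a transcript are ligated and sequenced, so that each value stands for 1 short target and not for a whole transcript. A pool of embryos that each give the same amount of RNA carries the arithmetic mean of its embryos, and averages of 10 independent embryos have a variance 10 times smaller than single embryos. Pooling also hides whether a middling level comes from all embryos or from a few. In bulk samples such as these, fewer cells of a type and less RNA per cell cannot be told apart.

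The table holds 3183 rows without gene or probe names, so rows are called by their number, counted from 1, and no gene, tissue or pathway can be named. Total counts ran from 3441281 to 5317549 in the single embryos and from 3826634 to 5361803 in the pools. A count of 0 allows up to 3 counts, which is 0.872 CPM (counts per 1e+06 counts of the library) in the smallest of these libraries, and this limit covers counting error only. Such limits use the library total, while CPM of rows use totals multiplied by edgeR's TMM factors. These factors were 0.943 to 1.09 in embryos and 0.945 to 1.05 in pools. The 10 largest rows took 28.8% to 31.4% of the counts in single embryos and 29.2% to 30.3% in pools. No pair of libraries within a group agreed within counting error, with a chi-square per degree of freedom of at least 52.3 in single embryos and 10.1 in pools, and each was counted as 1 sample. Across rows the single embryos were less alike than the pools. Spearman correlations lay between 0.880 and 0.950 over the 28 pairs of embryos and between 0.978 and 0.985 over the 28 pairs of pools, as a description across rows that share their libraries. Embryos 6 and 7 were the most alike at 0.950, embryos 4, 6 and 7 had 0.942 to 0.950 among themselves, and embryo 2 had the lowest values, 0.880 with embryo 4 and 0.882 with embryo 7.

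The spread between samples was smaller in pools over nearly the whole panel. The distance of a sample from its group, taken as the median over rows of the absolute difference of log2 CPM from the group mean, lay between 0.304 and 0.420 in the 8 single embryos and between 0.133 and 0.164 in the 8 pools. Every pool was nearer to its group mean than every embryo was to its own. The means were 0.343 ± 0.0355 and 0.148 ± 0.0115 (SD, n = 8 each), a ratio of 2.32, with an exact permutation p of 1.55e-04 (two-sided), the smallest that 8 against 8 samples allow. Because each centre was computed from the same 8 samples, these distances are those from a group's own mean. The permutation moved the finished distances and did not compute the centres again, so its p takes the distances within a group as independent.

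The biological coefficient of variation, which is the between-sample spread beyond counting error that edgeR fits over all rows, was 49.7% in single embryos and 15.8% in pools over 2567 rows. Averaging 10 embryos would take 49.7% to 15.7%. The ratio of the fitted values was 3.15, and it lay between 3.07 and 3.28 when any 1 of the 16 samples was left out. In the typical row the fall was smaller. Over the 1931 rows with a mean count of at least 50, the median SD of log2 CPM was 0.42 in single embryos and 0.18 in pools, and the median ratio of pool SD to embryo SD was 0.43, where averaging 10 embryos gives 0.32. The median ratio of squared coefficients of variation, with counting error taken off both, was 0.155 against an averaging value of 0.10.

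Of these rows, 620 were called less variable in pools, 32.1% of the 1931 rows tested, and 0 were called more variable (limma on absolute deviations, Benjamini-Hochberg adjusted p under 0.05). At an unadjusted p under 0.05 the same limma test had 923 rows less variable in pools and 0 more variable. With deviations taken from the group median, 263 rows were called. The SD was lower in pools in 1844 rows, 95.5% of the rows, called or not, and 87 rows had an equal or higher one. Rows with an SD above 1 on the log2 scale, a 2-fold spread, numbered 174 in single embryos and 7 in pools. Rows with an SD under 0.2 numbered 172 in single embryos and 1082 in pools.

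The difference in spread went with how far embryos differed, when rows were sorted by embryo SD into 4 bins. In the bin with the most even single embryos, the median SD was 0.23 in embryos and 0.13 in pools, a median ratio of 0.61, and 44 of 483 rows were called. In the bin with the widest single embryos it was 0.85 against 0.27, a median ratio of 0.29, and 277 of 483 rows were called. The bins were made on the embryo SD itself, so this is a description with no test.

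**Figure D1:**
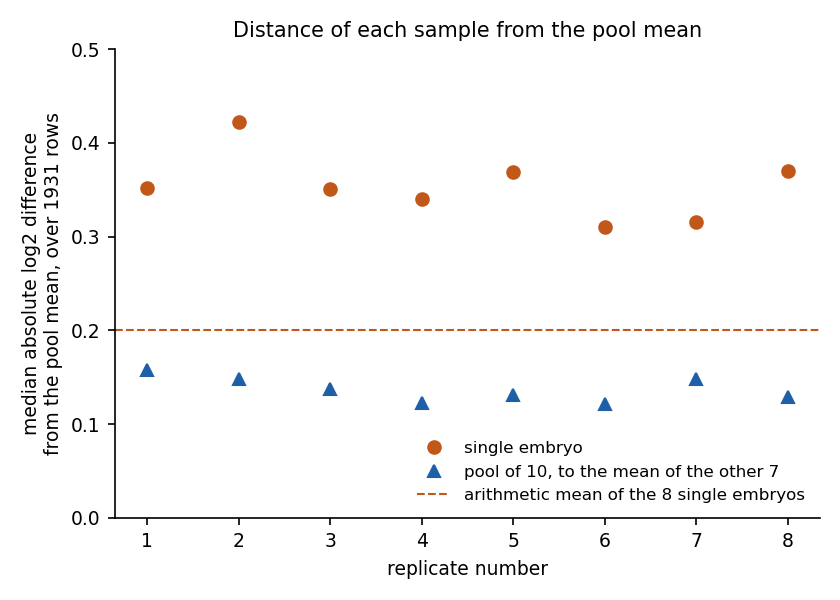
Median absolute log2 difference of each sample from the mean of the pools, over 1931 rows, by replicate number; circles are single embryos, triangles are pools measured against the mean of the other 7 pools, and the dashed line is the arithmetic mean of all 8 embryos. Single embryos lie between 0.310 and 0.422, the mean of 8 embryos at 0.20 and the pools between 0.122 and 0.158.

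**Figure D2:**
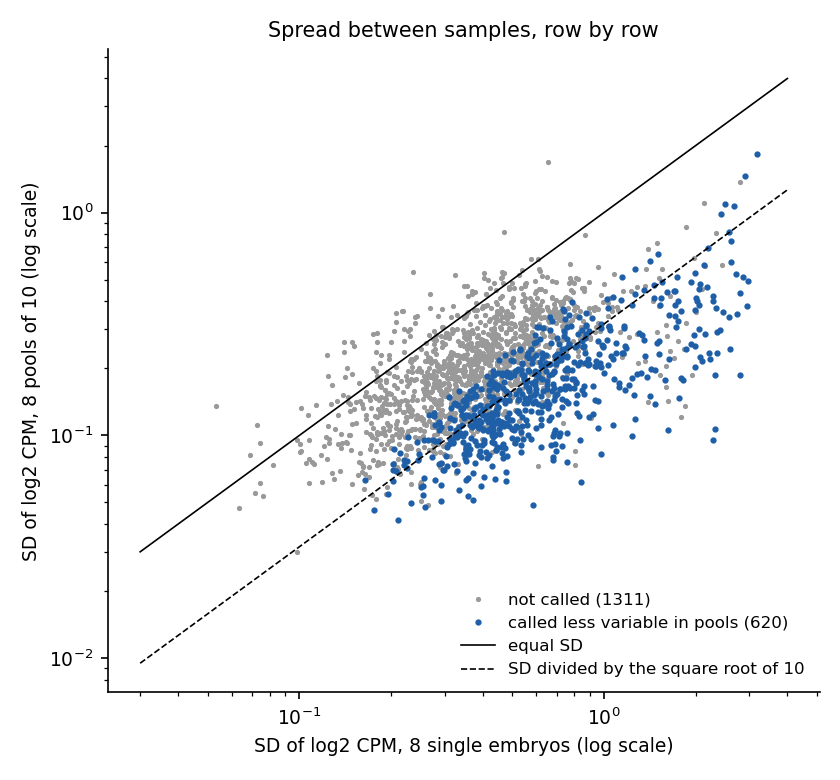
SD of log2 CPM over 8 pools against that over 8 single embryos for 1931 rows, both axes logarithmic; the solid line marks equal SD and the dashed line the embryo SD divided by the square root of 10. Most rows, 1844, lie under the solid line, and 620 are called less variable in pools.

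The rows that changed most in spread had embryos at very different levels. They were chosen for the greatest fall in SD, which requires a large SD in embryos, so their values and p-values are a description. In row 837 the single embryos spanned 9.32 to 854 CPM (median 385) and the pools 439 to 647 CPM (median 519). Embryos 3, 4 and 7 were at 15.1 CPM or less and the other 5 at 376 CPM or more, and all 8 pools lay within the range of those 5. The SD of log2 CPM was 2.79 in embryos and 0.19 in pools (limma adjusted p = 3.26e-05).

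Row 321 ran from 1.96 to 270 CPM over embryos with a median of 6.84, and from 104 to 221 CPM over pools with a median of 143. Embryos 4, 6 and 7 were at 160 CPM or more and the other 5 at 6.89 CPM or less, and no pool was as low as those 5. Its SD was 2.95 in embryos and 0.38 in pools (limma adjusted p = 6.05e-05). Row 579 ran from 48.4 to 4820 CPM in embryos, with embryos 1, 5 and 6 at 50.5 CPM or less, and from 986 to 2410 CPM in pools. Its SD was 2.98 and 0.49 (limma adjusted p = 8.61e-05). In row 1917 embryos 2, 4, 6 and 7 were at 16.0 CPM or less and the other 4 between 197 and 633 CPM, and pools ran from 270 to 546 CPM. The SD was 2.74 in embryos and 0.35 in pools (limma adjusted p = 1.87e-06).

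In a few rows the pools were the more scattered group, though none passed the test. Row 811 ran from 16.2 to 61.1 CPM in embryos with a median of 33.9, and from 0 to 19.3 CPM in pools with a median of 11.6. Pool 2 had 0 counts, under a limit of 0.711 CPM, and the SD of log2 CPM was 0.65 in embryos and 1.70 in pools (limma adjusted p = 0.271). Its level fell, at a log2 fold change of -1.90 ± 0.46 (SE; edgeR adjusted p = 0.0170). Row 2147 ran from 6.24 to 16.8 CPM in embryos and from 6.89 to 40.3 CPM in pools, with SDs of 0.47 and 0.82 (limma adjusted p = 0.171). Row 317 had SDs of 0.24 in embryos and 0.54 in pools, and row 1587 had 0.32 and 0.52.

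The 2 rows with the most even single embryos were chosen for that, so their values are a description. Row 2144 ran from 217 to 244 CPM in embryos with a median of 227, and from 224 to 296 CPM in pools with a median of 234. Pool 7 alone was above 259 CPM. The SDs were 0.05 and 0.14 on the log2 scale (limma adjusted p = 0.206). Row 1064 ran from 441 to 500 CPM in embryos and from 450 to 504 CPM in pools, with SDs of 0.063 and 0.047 (limma adjusted p = 0.630).

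Most pool levels lay near the arithmetic mean of the single embryos. Over the 2567 rows with enough counts, the pool mean was within 1.25-fold of the embryo mean in 63.1% of rows and more than 2-fold away in 159 rows, 6.19%, of which 69 were higher and 90 lower in pools. The median absolute log2 ratio was 0.23 and the median signed one -0.045. A single embryo was farther from the pools than the mean of 8 embryos was: over 1931 rows, the median absolute log2 difference from the pool mean was 0.310 to 0.422 for 1 embryo, 0.192 to 0.214 for the mean of 7 embryos, and 0.20 for the mean of all 8. A pool differed from the mean of the other 7 pools by 0.122 to 0.158.

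The kind of mean mattered where embryos differed widely. A mean of log values lies further below the log of an arithmetic mean the more the values differ. The pattern across bins therefore follows from the arithmetic and is a description with no test. Rows 1779, 321 and 2337 below were chosen for their gap between the means. With the mean of log2 CPM in place of the arithmetic mean, 127 rows were more than 2-fold higher in pools and 37 lower, where the arithmetic mean gave 69 and 90. In the bin with the widest single embryos, the median log2 ratio of pools to embryos was -0.09 with the arithmetic mean and 0.22 with the log mean. In the bin with the most even embryos the medians were -0.0054 and 0.00084. The gap was greatest in row 1779, where embryo 6 had 74.6 CPM and the other 7 had 2.47 CPM or less, while pools ran from 14.9 to 43.5 CPM with a median of 34.3. Its log2 ratio was 1.68 with the arithmetic and 4.34 with the log mean, and its level was not called (edgeR adjusted p = 0.355). In row 321 the ratios were 0.85 and 2.96. In row 2337, where embryos 2 and 8 had 94.3 and 147 CPM and the other 6 had 3.57 CPM or less, they were 2.06 and 4.18, and pools ran from 19.8 to 177 CPM with a median of 152.

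**Figure D3:**
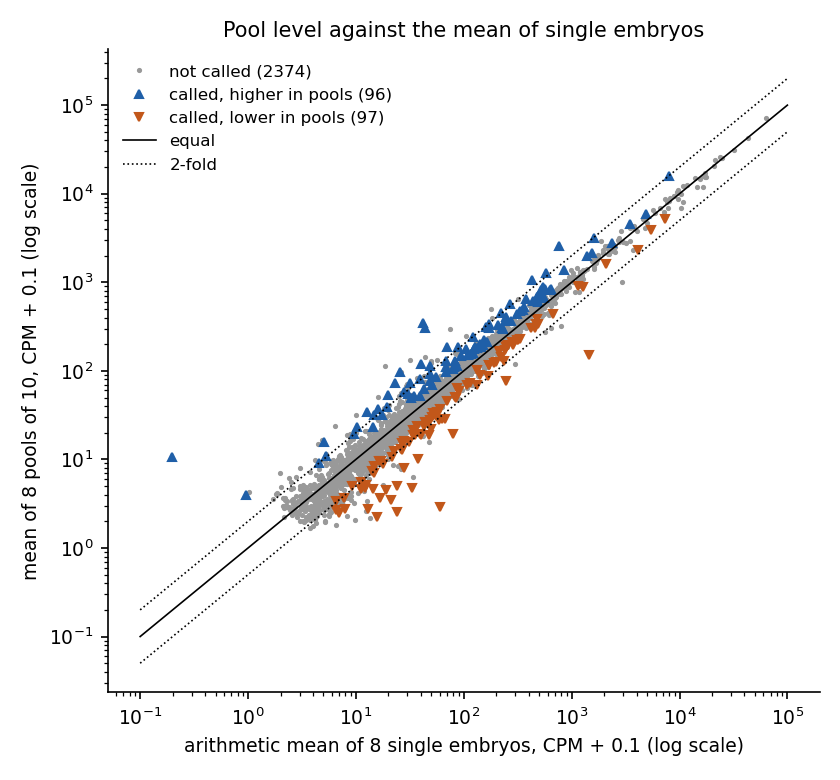
Mean CPM of 8 pools against the arithmetic mean CPM of 8 single embryos for 2567 rows, with 0.1 added and both axes logarithmic; triangles are the 96 rows called higher and the 97 called lower in pools. Most rows lie between the dotted lines that mark a 2-fold difference, over the whole range of abundance.

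The 3 most abundant rows showed no called difference. Row 2323 had 62920 ± 7744 CPM in embryos and 71330 ± 4237 CPM in pools (SD, n = 8 each), and all 8 pools were above the embryo mean (log2 fold change 0.18 ± 0.073, SE; edgeR adjusted p = 0.150). Row 2293 had 43020 ± 3208 and 42960 ± 1828 CPM, with 4 pools above and 4 below the embryo mean. Row 2325 had 32200 ± 2245 and 31050 ± 1761 CPM. In the exposure of 12 December, a separate set of samples, pools of 5 were higher in rows 2323 and 2293 (log2 fold changes 0.35 and 0.25; edgeR adjusted p = 2.98e-04 and 8.18e-04), and the difference between exposures was not called in either. These p-values take samples within extraction batches as replicates. With batch sums as replicates edgeR called 0 of 3084 rows, with 174 of these at an unadjusted p under 0.05.

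By edgeR's quasi-likelihood test, 193 of 2567 rows, 7.52%, differed in level between pools and single embryos (Benjamini-Hochberg adjusted p under 0.05). They were 96 rows higher in pools, 3.74% of those tested, and 97 rows lower, 3.78%. The split depended on the test: DESeq2 called 120 higher and 156 lower, and limma-voom with weights by group 149 higher and 77 lower. The higher rows had log2 fold changes from 0.25 to 6.45 with a median of 0.66, and the lower ones from -4.44 to -0.31 with a median of -0.82. A change of more than 2-fold was fitted in 63 of them, 27 higher and 36 lower. The higher rows were more abundant, with a median of 161 CPM over the 16 samples, than the lower rows at 42.5 CPM, where all rows tested had a median of 39.3 CPM. Without pool 7 the test called 130 rows, 68 higher and 62 lower, and without pool 6 it called 138, 75 higher and 63 lower. Without 1 of pools 1 to 5 the test called 144 to 174 rows, and without 1 embryo 169 to 237.

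In 42 rows, 1.64% of those tested, all 8 pools were above all 8 embryos, and in 18 rows, 0.701%, all were below. Of these, 40 and 18 were called. Called rows were thus of different kinds, some with even embryos and a shifted level and others with scattered embryos. In 11 of the 193 rows the SD among embryos was larger than their mean. The same share over all rows tested is not given here, so this count describes the called rows only. The share called was 11.5% in the bin of rows with the most even embryos and 4.36% in the bin with the widest ones. The embryo SD that made the bins also enters the error of the level test, so these shares are a description. The median absolute log2 ratio of pool to embryo mean went the other way, 0.14 in the most even bin and 0.43 in the widest.

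Among the rows with even embryos, row 2290 ran from 1290 to 1500 CPM in embryos with a median of 1390, and from 1890 to 2110 CPM in pools with a median of 2000. The groups did not overlap, and the rise was 1.43-fold (log2 fold change 0.52 ± 0.058, SE; edgeR adjusted p = 3e-05). Row 785 ran from 209 to 364 CPM in embryos and from 491 to 670 CPM in pools, a 2.12-fold rise (log2 1.09 ± 0.11; edgeR adjusted p = 1.89e-05). Row 2228 ran from 57.6 to 80.7 CPM in embryos and from 115 to 152 CPM in pools, a 1.89-fold rise (log2 0.92 ± 0.10; edgeR adjusted p = 3e-05). In all 3 rows every pool was above every embryo.

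Row 2458 ran from 47.5 to 93.8 CPM in embryos with a median of 67.9, and from 23.2 to 34.7 CPM in pools with a median of 27.5. It fell 2.33-fold with no overlap (log2 fold change -1.22 ± 0.14, SE; edgeR adjusted p = 3e-05). Row 1037 ran from 150 to 351 CPM in embryos and from 43.8 to 106 CPM in pools, a 3.22-fold fall (log2 -1.69 ± 0.22; edgeR adjusted p = 1.22e-04). Row 467 ran from 3150 to 5410 CPM in embryos and from 1840 to 2870 CPM in pools, a 1.76-fold fall (log2 -0.82 ± 0.12; edgeR adjusted p = 5.16e-04). In each of these 3 rows the lowest embryo was above the highest pool.

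The 5 greatest rises were in rows 971, 966, 1394, 2047 and 1820. Row 971 had 3 counts in all over the 8 embryos and 388 over the 8 pools, a ratio of 119 with an exact 95% counting interval of 40.6 to 582 (edgeR adjusted p = 2.39e-06). It ran from 0 to 0.271 CPM in embryos and from 4.20 to 16.1 CPM in pools, so every pool was above every embryo. All embryos were under the limit that a count of 0 allows. The row passed the count filter only through the pools, the group where it was high. Its p-value and its rank among the rises are therefore a description. The counting interval does not cover the spread between embryos.

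Row 966 ran from 4.53 to 152 CPM in embryos with a median of 15.2, and from 254 to 419 CPM in pools with a median of 349. Row 1394 ran from 6.72 to 162 CPM in embryos with a median of 18.8, and from 260 to 329 CPM in pools with a median of 309. In both rows embryo 7 was the highest embryo and still below every pool, and embryos 1, 2, 3 and 5 were all at 12.9 CPM or less. The log2 fold changes were 3.05 ± 0.62 and 2.80 ± 0.55 (SE; edgeR adjusted p = 0.00528 and 0.00399). Row 2047 ran from 12.4 to 58.6 CPM in embryos and from 81 to 122 CPM in pools, again with embryo 7 highest (log2 1.92 ± 0.23; edgeR adjusted p = 6.76e-05).

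Row 1820 had embryos from 101 to 3120 CPM with a median of 384, and pools from 2080 to 2890 CPM with a median of 2650. Embryo 7 was above every pool and the other 7 embryos were at 908 CPM or less. Its edgeR adjusted p was 0.0490, and it missed the threshold in 17 of 24 alternatives, among them each in which 1 sample other than embryo 7 was left out, at adjusted p up to 0.0867. Embryo 7 was the highest embryo in 27 of the 96 rows called higher in pools, more often than any other embryo. Over the 1931 rows with a mean count of at least 50 it was the highest in 251, and embryo 2 was the highest in 376.

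The greatest falls were in rows where some embryos were high and the pools stood near the low embryos. Row 2099 ran from 132 to 4160 CPM in embryos with a median of 1160, and from 117 to 202 CPM in pools with a median of 152. Embryos 1, 3, 5 and 8 were at 2140 CPM or more and the other 4 at 188 CPM or less, and no pool was above 202 CPM. The log2 fold change was -3.26 ± 0.68 (SE; edgeR adjusted p = 0.00630).

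Row 1469 ran from 2.38 to 144 CPM in embryos with a median of 43.7, and from 1.00 to 6.36 CPM in pools with a median of 2.27. Here embryos 4, 6, 7 and 8 were at 83.1 CPM or more and the others at 4.34 CPM or less (log2 fold change -4.44 ± 0.88, SE; edgeR adjusted p = 0.00422). In rows 163 and 1555 the high embryos were 4, 6 and 7, at 59.3 to 93.1 CPM and at 29.3 to 43.1 CPM, and no pool was above 9.13 CPM in the first or 4.41 CPM in the second. In row 1598 embryos 4, 6 and 7 were instead the low ones, at 1.24 CPM or less, the other 5 were at 24.1 CPM or more, and pools ran from 0.250 to 6.90 CPM. The edgeR adjusted p was 0.0271, 0.0218 and 0.0218 in rows 163, 1555 and 1598. Row 163 missed the threshold in 11 of 24 alternatives, among them the fits without embryo 4, without embryo 6 and without each of pools 2, 3, 4, 5, 7 and 8, at adjusted p up to 0.256 over all alternatives. Rows 1469, 2099, 1598 and 1555 missed it in 1 to 3, at adjusted p up to 0.212. All 5 rows missed it in the edgeR fit with the replicate number as a block. The fitted falls of all 5 were smaller when means were taken on the log scale: limma on log2 CPM gave -2.90 in row 1469, -2.09 in row 2099, -2.25 in row 1598, -1.69 in row 1555 and -1.57 in row 163, and only row 1469 passed its threshold (limma adjusted p = 0.0433).

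**Figure D4:**
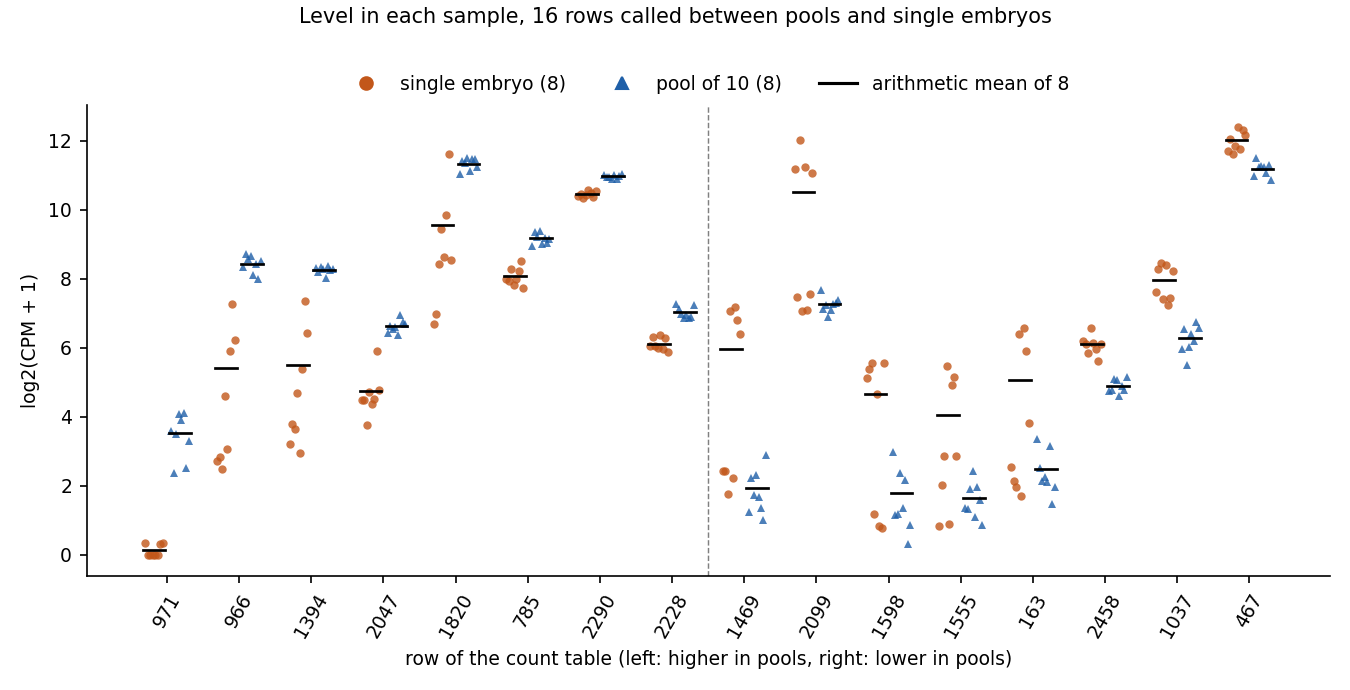
Level of 16 called rows in each sample as log2(CPM + 1); circles are the 8 single embryos, triangles the 8 pools of 10, and bars the log2 of the arithmetic mean of 8 plus 1. In rows 1469, 2099, 1598, 1555 and 163 the embryos split into a high and a low set and the pools lie near the low set, and in row 971 every embryo is near 0.

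These rows led to a description, chosen after the values were seen, of all rows in which embryos stood at 2 levels. A row was taken when its sorted single embryos had a gap of at least 4-fold on the log2 CPM scale with at least 2 embryos on each side and a highest embryo of at least 10 CPM. There were 78 such rows. The gap rule itself does not use the pools, but it was applied to the 2567 rows that passed the filter of the level test. That filter counts all 16 samples. A row low in most embryos could therefore enter through its pools, which favours pools above the low embryos. Positions of the pools given below are a description. The level test called 5 of the 78, 6.41%, with 7.52% over all rows, namely rows 163, 1469, 1555, 1598 and 2099. These 5 are the greatest falls that led to the rule, so the share called is not that of a set chosen apart from the calls.

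In most of these rows the pools lay above the low embryos. The pool mean lay in the gap between the low and the high embryos in 30 rows, at or above the lowest high embryo in 43, and at or below the highest low embryo in 5. In 65 of the 78 rows every pool was above every low embryo. Row 17 shows the first kind: embryos 1, 2, 4 and 7 were at 134 CPM or more and the others at 12.4 CPM or less, and pools ran from 21.4 to 114 CPM with a median of 93.1.

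The position of the pools was put on a scale where 0% is the mean of the low embryos and 100% that of the high embryos, so that a pool of equal shares of RNA would sit at the percentage of its embryos that are high. The median row had 62.5% of its embryos high and its pools at 66.3%. The position was outside the exact 95% binomial interval of the share of high embryos in 30 of 78 rows, below it in 9 and above it in 21. That interval covers only the counting of 8 embryos, not the spread within a level or relatedness between embryos. In 4 rows the pools averaged below 0% (rows 163, 1469, 1555 and 2099), all among the falls that led to the rule. In 16 rows the pools averaged above 100%. Of the latter, row 105 had a high level of 38.2 CPM on average over 6 embryos and pools from 51.2 to 89.3 CPM, at 179%, and row 2202 had 67.8 CPM over 2 embryos and pools from 65.5 to 167 CPM, at 171%.

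Pools also differed from each other in these rows. In 22 of the 78 rows the highest pool was more than 4 times the lowest. Row 2299 was the widest of the rows of the spread test, with an SD of 1.83 on the log2 scale in pools: it ran from 41.2 to 2176 CPM over the pools, with the 5 high embryos averaging 4618 CPM and the 3 low ones 63.5 CPM. In the 49 rows with pools at 10% to 90% of the scale, the median SD between pools was 16.0 percentage points. The median that drawing 10 embryos at random from 2 fixed levels would give was 14.4 points, and the observed SD was the smaller one in 15 of the 49 rows. Counting error and spread within a level add to the observed values.

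The same embryos tended to share a level. Embryos 6 and 7 were on the same side in 65 of the 78 rows, embryos 4 and 7 in 61 and embryos 4 and 6 in 56, while embryos 4 and 5 were in 30. These 3 embryos were also the most alike across all rows. Each embryo was at the high level in 31 to 49 of the 78 rows, with embryo 3 lowest and embryo 8 highest, so no embryo was high in all.

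**Figure D5:**
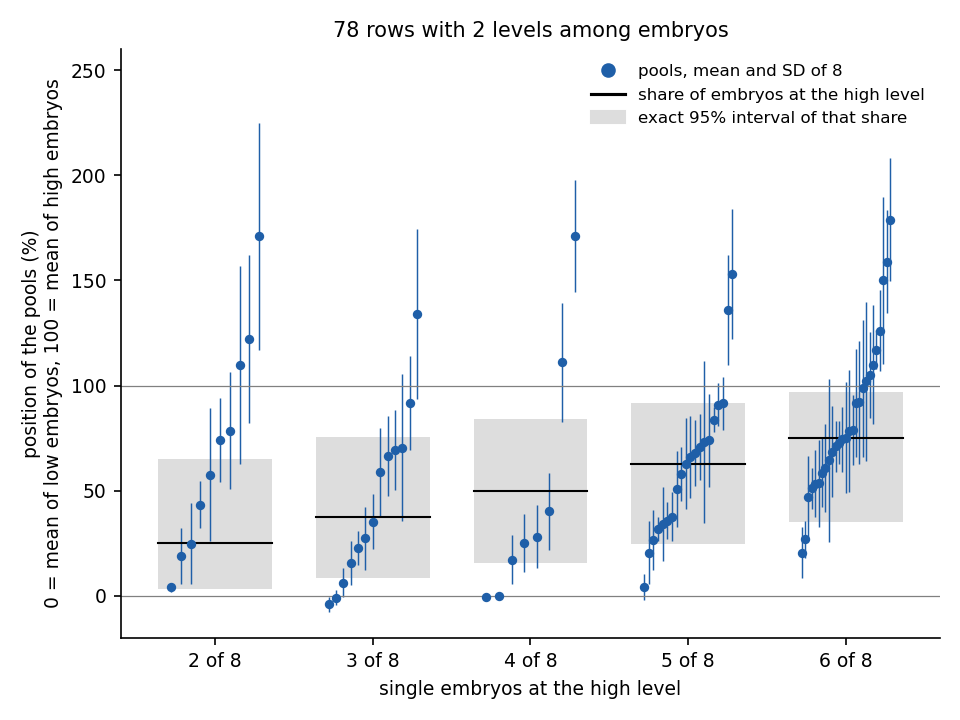
Position of the pools in the 78 rows with 2 levels among embryos, grouped by how many of 8 embryos were high; points and bars are the mean and SD of 8 pools, black lines the share of high embryos and grey boxes its exact 95% interval. In 48 rows the mean is inside the box, and the rows at or under 0% include 2099, 1469, 163 and 1555.

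Detection followed the same line. With at least 5 counts as detected, 2471 of the 3183 rows were found in all 8 pools and 2234 in all 8 embryos. Rows found in some but not all samples numbered 555 in pools and 864 in embryos. In 264 rows all 8 pools and not all 8 embryos had the row, and in 27 rows it was the reverse. These counts were not adjusted for depth, and the mean total was 4495880 counts in pools and 4057180 in embryos. With every library thinned at random to the smallest total, the 264 rows became 226. Rows found in no pool numbered 157 and in no embryo 85, so 8 embryos together showed more rows than 8 pools. Of 196 rows found in only 1 or 2 embryos, 7 were found in all 8 pools.

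A second exposure, from 12 December, offered pools of 5 and single embryos that share no sample with the comparison above, with 24 pools and 16 single embryos in 5 extraction batches, numbered 6 and 7 for the embryos and 8 to 10 for the pools. They had the same DMSO dose, age and tissue, and RNA was extracted on 17 December. There 157 of 2678 rows, 5.86%, differed in level by edgeR with single samples as replicates. With the counts of each batch summed (2 sums against 3), edgeR called 0 of 3084 rows tested, and 174 of these 3084 had an unadjusted p under 0.05. Of the 193 rows called on 13 December, 133 had the same direction on 12 December, 68.9%, where 58.4% of all 2556 rows tested in both did. On 12 December 23 of the 193 were called, 21 of them in the same direction. Of all 2556 rows, 155 were called on 12 December, 115 of them in the same direction. Of the 97 lower rows 72 kept the direction, with a median log2 fold change of -0.82 on 13 and -0.19 on 12 December. Of the 96 higher rows 61 did, with medians of 0.66 and 0.098. Over all 2556 rows the medians were -0.044 on 13 and -0.03 on 12 December.

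The difference between pools and single embryos was tested for a change between the exposures, with pools of 10 in one and of 5 in the other. Extraction batch goes with pool size in both, so the effects of pooling and of batch cannot be told apart in it. The difference changed in 56 of 2849 rows, 1.97%, by edgeR's interaction contrast with an adjusted p under 0.05, and 31 of these were among the 193 rows, which were themselves called on the 13 December samples. Several of the rows above had other values on 12 December. Row 971, at 0.271 CPM or less in the 8 embryos above, was over 10 CPM in 3 of the 16 single embryos of 12 December and reached 78.1 CPM. Its median was 0.356 CPM over those 16 embryos and 8.88 CPM over the 24 pools of 5, which ran from 0 to 32.7 CPM. Its log2 fold change there was -0.075 (edgeR adjusted p = 0.974). Row 1394 had a median of 207 CPM over those 16 embryos and 270 CPM over the 24 pools of 5. Row 1469 was over 10 CPM in 1 of those 16 embryos and in 5 of the 24 pools, and its highest embryo had 21.8 CPM. Row 2099 ranged widely there too, from 121 to 4790 CPM over embryos with a median of 230, while pools of 5 ran from 110 to 483 CPM. It fell there as well, at a log2 fold change of -1.37 (edgeR adjusted p = 0.0182). The other greatest falls went the opposite way on 12 December. Rows 1469, 1555, 163 and 1598 had log2 fold changes of 1.15, 1.76, 1.45 and 0.75, and only that of row 163 was called (edgeR adjusted p = 0.0226). Of the 78 rows with 2 levels, 77 were tested on 12 December and 29 of them, 37.7%, also had a 4-fold gap among the 16 embryos with at least 2 on each side. Over all 2678 rows that share was 3.88%.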

How the data were processed

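Counts of 16 samples (8 single embryos, 8 pools of 10) were taken from a table of raw counts that the authors deposited, with 3183 rows, 96 sample columns and no row names. Tools listed by the submitters' processing notes are DESeq2 1.31.15, RSEM 1.3.3, STAR 2.7.10a, fastp 0.23.2 and bcl2fastq 2.20. How the counts were made from these, the genome build and the annotation: not given in the sources used here. Members and lists were chosen with earlier results of these data known.

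Level was tested with edgeR 4.0.16 (R 4.3.3; filterByExpr, TMM, quasi-likelihood F test), with the SE taken from the F statistic, and spread with limma 3.58.1, taking how far each log2 CPM (prior count 2) lay from its group mean as the response, over rows with a mean count of at least 50, both with Benjamini-Hochberg adjustment over all rows tested. Log2 ratios of means had 0.01 CPM added. Rows named are the 5 greatest called changes in each direction with at least 10 CPM, the next 3 in each direction by p, the 4 greatest falls and rises in SD, the 3 most abundant, the 3 with the widest gap between means and the 2 most even embryos. Others, chosen after their values were seen, are rows 17, 105, 2202 and 2299. Counts of 2567 rows were simulated with 1 common dispersion per group, 0.247 in embryos and 0.0248 in pools. Of these rows 2548 passed the filter of the level test, and the others counted as not called. In these counts the level test found 61% of 2-fold and 96% of 4-fold changes and called 0.211% of unchanged rows. For the spread test (1932 rows) both groups had the pool dispersion, except 155 rows with one 8 times larger in embryos, of which it found 20%. Measured rows do not share 1 dispersion, so these shares may not carry over to them. Alternatives were DESeq2 1.42.0, voom weights, log means, other scalings and filters, thinning, each sample left out, and a replicate block. The labels do not say that a replicate number marks shared embryos, a dish or a day, so the level test has no block. Depth was 3441281 to 5361803 counts.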

Additional observations from a re-analysis of the deposited data

Results flagged for a closer look

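In 68 groups of 8 values, 5 held a sample far from the other 7. Among normal values of groups not chosen, about 1 in 20 would be flagged. Most of these groups held CPM of rows named by rule, so that share does not carry over and the flags are a description. Embryo 7 stood far above the others in row 966 (152 CPM), row 2047 (58.6 CPM) and row 1820 (3120 CPM). Embryo 6 did so in row 1779 (74.6 CPM), which was chosen for a gap between means that 1 high embryo makes large. Embryo 2 had the largest distance from the embryo mean, 0.420 on the log2 scale.

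In 7 of the 31 rows named by rule the difference between pools and single embryos was not the same in the exposures of 13 and 12 December (edgeR interaction contrast, adjusted p under 0.05 over all rows, pools of 10 against pools of 5). The contrast was called in 56 of all 2849 rows tested, 1.97%, and in 31 of the 193 rows called on 13 December. The log2 difference, 13 minus 12 December, was 6.55 in row 971, 2.41 in row 1394, 2.25 in row 2047 and 0.69 in row 2228. It was -5.57 in row 1469, -4.59 in row 1555 and -4.24 in row 163. All 7 rows were chosen for their change or p on 13 December, which favours a difference from 12 December, so these values are a description and not independent support. In both exposures the extraction batch went with the number of embryos, so their parts cannot be told apart. Row 971 had 3 counts in the embryos of 13 December, so its value depends on the prior count. Rows 163, 1469 and 1555 had log2 changes of 1.45, 1.15 and 1.76 on 12 December, of which that of row 163 was called (edgeR adjusted p = 0.0226) and those of rows 1469 and 1555 were not (0.276 and 0.0652).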

How the results depend on the processing

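Of 383 values for the 16 called rows under alternatives, 346 kept their direction and side of the threshold, 37 kept the direction and missed it, and 0 reversed. For the level test the cause of the following was not tested. DESeq2 called 156 rows lower in pools and 120 higher (276 in all, including all 193 edgeR rows), limma-voom with weights by group 149 higher and 77 lower, and limma on log2 CPM 138 and 81. The replicate block gave 161 rows, 108 higher and 53 lower, and 137 were shared. In that block fit the 5 greatest falls missed the threshold (edgeR adjusted p = 0.0511, 0.117, 0.130, 0.0645 and 0.256 in rows 1469, 2099, 1598, 1555 and 163). The labels give no pairing, and the deviations of same-numbered samples correlated at -0.013 to 0.12, over 0.1 in 1 of 8 pairs. Their median was 0.068 against -0.0075 for other numbers, and 6 of 8 embryos and 5 of 8 pools correlated best with their own number. Unrelated numbers would give about 1 of 8 in each. Whether same-numbered samples are related was not tested. With 1 sample left out the calls ran from 130 (without pool 7) to 237 (without embryo 2), higher rows from 68 to 114 and lower rows from 62 (without pool 7; 63 without pool 6) to 123. The other scalings gave 181 to 190 calls. Rows less variable in pools numbered 263 with the group median as centre, 523 with the replicate block and 517 to 621 with 1 sample left out. The coefficient of variation was 43.3% and 13.9% over rows with a mean count of at least 50, and 14.9% in pools after thinning. With 1 sample left out it ran from 48.6% to 51.05% in embryos and from 15.2% to 16.2% in pools, and the ratio from 3.07 to 3.28. The difference in sample distance ran from -0.201 to -0.177. The median absolute log2 ratio was 0.25 with medians, 0.20 with the higher count minimum and 0.23 to 0.25 with 1 embryo left out. DESeq2 called 89 rows for the difference between exposures, and batch sums gave 0 rows for 12 December. Gaps of 1.5 and 3 on the log2 scale, chosen after the data were seen, gave 115 and 38 rows with 2 levels, of which 46 and 20 were outside the interval; the latter is 52.6%. Depth limits rows under 0.872 CPM in the smallest library.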
